A study of Homo sapiens with 16 samples.

Results

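KG-1 control cells treated with venetoclax were compared with the same cells given DMSO, the solvent, to describe the transcriptional response of AML cells with unaltered FOXM1 to this drug. The KG-1 line, long established from human AML, grows in suspension as cells resembling myeloblasts. Members were chosen by label and by depth: 2 libraries labelled venetoclax and 2 labelled DMSO, out of 16 libraries of the series, and the 13919 genes with at least 10 counts on average over these 4 libraries, out of 43836 genes listed. Of these, 11681 were protein-coding. The lowest mean inside this limit was 10 counts and the highest outside it was 9.75, and 8674 genes with at least 1 count fell below it. All 4 libraries came from cells carrying the pLKO.1-puro non-target lentivirus and selected with 4 μg/mL puromycin, so the virus and the selection were shared by treated and untreated cells. Venetoclax was given at 100 nM for 48 h, and the DMSO cells received 0.3% DMSO for 48 h. Other libraries used for comparison were control cells with 0.75 μM AraC or 50 μM STL427944 for 48 h, and cells with stable FOXM1 knockdown by lentiviral shRNA (FOXM1-KD) given DMSO or venetoclax in the same way, each with 2 libraries. The differences between libraries of the same label were also taken from FOXM1-KD cells with 0.75 μM AraC for 48 h. They were taken as well from libraries labelled control cells with 30 μM MK-2206, given for 24 h and not 48 h. These MK-2206 libraries had 7 and 18 counts of CD34, against 25160 and 26713 with DMSO, and 3888 and 3424 of MPO, against 35 and 48. They also entered the fit of all 16 libraries, and whether they came from the same culture was not tested. The labels number the venetoclax libraries 1 and 2, whereas the DMSO and STL427944 libraries are numbered here in the order of their records. The study's methods describe the libraries of a condition as biological replicates, and the labels do not say whether they came from separate cultures, so p-values measure the spread between these libraries only.

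Venetoclax is a small molecule of the BH3 mimetic class that occupies the groove of BCL2 in which pro-apoptotic BH3-only proteins are held. Displaced BH3-only proteins such as BIM, encoded by BCL2L11, can then activate BAX and BAK1, which open the outer mitochondrial membrane. MCL1, BCL2L1 and BCL2A1 hold the same partners without being bound well by the drug, and high levels of them are known for resistance. ATF4 is a transcription factor of the integrated stress response whose targets include genes of amino acid synthesis and transport, and FOXM1 drives genes of mitosis.

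The 2 venetoclax libraries differed widely from each other. Gene counts totalled 18167309 and 18558194 in DMSO libraries 1 and 2, 14327139 in venetoclax 1 and 21362546 in venetoclax 2. A chi-square of their counts per degree of freedom was 115.22 for the venetoclax pair, the highest of the 8 groups, and 9.40 for the DMSO pair, so neither pair was a single library deposited again. Spearman's rho of log2 CPM (each gene's share of the scaled library total) across genes was 0.9951 between the DMSO libraries and 0.9575 between the venetoclax libraries. The closest of the other libraries to venetoclax 1 was STL427944 library 2, at a rho of 0.9884, ahead of DMSO 1 at 0.9751, DMSO 2 at 0.9716 and venetoclax 2. The closest to venetoclax 2 was STL427944 library 1, at 0.9929, followed by DMSO 2 at 0.9925 and DMSO 1 at 0.9888. The venetoclax and STL427944 libraries therefore did not group by label. Whether labels were exchanged between these groups was not tested, and every value given for a venetoclax library is that of the library so labelled. These are correlations across genes, which are not independent replicates.

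**Figure D1:**
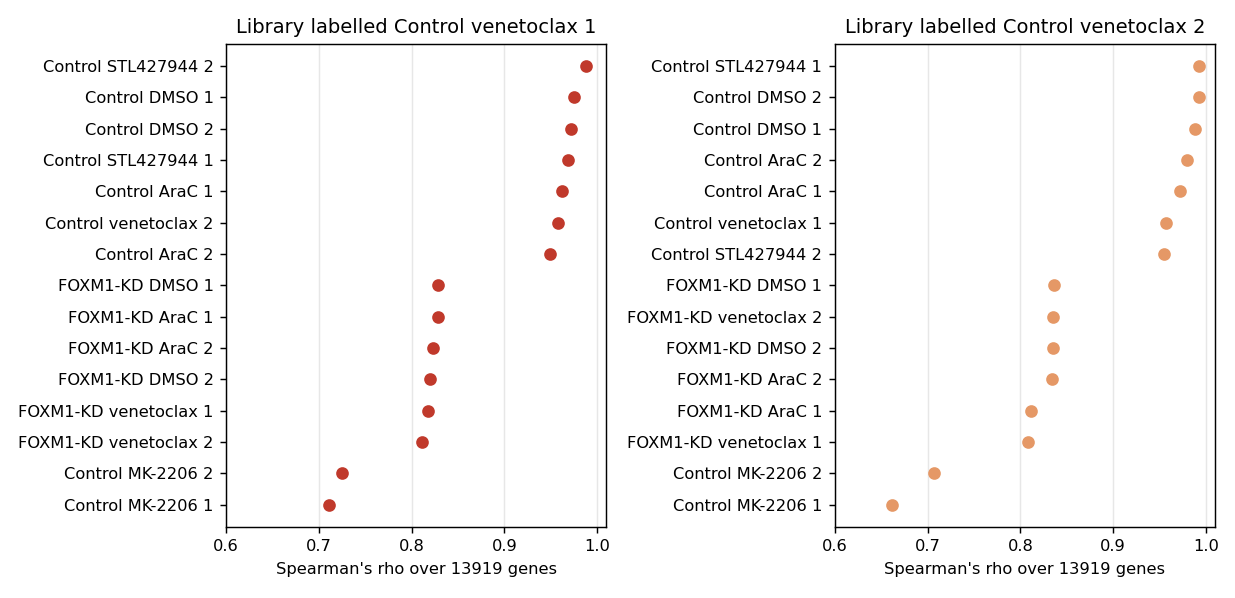
Spearman's rho of log2 CPM across genes (x axis) between each venetoclax library and each of the other libraries, 1 point per library. Venetoclax 1 lies closest to STL427944 library 2, at 0.9884, and venetoclax 2 lies closest to STL427944 library 1, at 0.9929, and next to the DMSO libraries.

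Both libraries also differed from DMSO along the base composition of transcripts. Over 11681 protein-coding genes, the log2 difference from DMSO had a Spearman correlation with transcript GC content of 0.452 in venetoclax 1 and -0.666 in venetoclax 2, and with transcript length of 0.054 and 0.165. Mitochondrial transcripts took 1.37% and 2.11% of the counts in the DMSO libraries, 1.39% in venetoclax 1 and 3.05% in venetoclax 2. A fit with GC-corrected offsets was run beside the main one. Its values are given below for some of the genes and lists whose direction or calls it changed.

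With both libraries in one test, no gene was called. The call used throughout required at least a 2-fold difference and an adjusted p below 0.1 in edgeR's quasi-likelihood test. Of 13919 genes, 0 were called higher and 0 lower (0%), the lowest adjusted p was 0.99997, and 87 genes (0.625%) had an unadjusted p below 0.05. DESeq2 and edgeR's exact test also called 0 genes, with 122 and 132 genes below 0.05. Both venetoclax libraries lay above both DMSO libraries in CPM for 1527 genes (11%) and below both for 1646 genes (11.8%). With 1 CPM added to each value, the 2 venetoclax libraries lay 2-fold or more from each other for 1604 genes (11.5%). That share was 0.251% between the DMSO libraries and 12.2% between the STL427944 libraries. In a bulk measurement, fewer cells of a type and less RNA per cell cannot be told apart.

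Members of the BCL2 family, the drug's own pathway, differed little between groups. BCL2, the target of venetoclax (hg38, chr18:63123346-63320128, minus strand), had 2475 and 2545 counts with DMSO, 2032 in venetoclax 1 and 3104 in venetoclax 2. Scaled to depth this was 137 ± 2.15 CPM with DMSO and 144 ± 11.1 CPM with venetoclax (SD, n = 2 each). The groups overlapped, and the log2 fold change was 0.07 with an SE of 0.18. With GC-corrected offsets the log2 difference of BCL2 was 0.04 in venetoclax 1 and 0.10 in venetoclax 2, against -0.02 and 0.13 in the main fit. MCL1, which holds BIM in place of BCL2, read 143 ± 4.02 CPM with DMSO and 135 ± 22.9 CPM with venetoclax, its libraries lying on opposite sides of DMSO at 119 and 152 CPM.

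BCL2L1, which encodes BCL-XL, was the member of the anti-apoptotic list with both venetoclax libraries below both DMSO libraries. It read 41.9 and 45.6 CPM with DMSO, 37.9 in venetoclax 1 and 40.6 in venetoclax 2, a log2 fold change of -0.15 with an SE of 0.19. With GC-corrected offsets its log2 difference was -0.42 in venetoclax 1 and 0.12 in venetoclax 2, on opposite sides of DMSO. BCL2A1, an NF-kB target, had 139 and 160 counts with DMSO, 71 in venetoclax 1 and 162 in venetoclax 2, so the low value was that of 1 library. Of 6 anti-apoptotic genes 5 passed the count limit and 0 were called in the test of both libraries or of either library. Over all genes, 5.93% were called higher and 3.36% lower in venetoclax 1, and 0.172% and 0.381% in venetoclax 2. The list's median log2 fold change was -0.08, against 0.03 over all genes.

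Among the BH3-only genes, BBC3 was called. BBC3, which encodes PUMA, had 104 and 109 counts with DMSO, 289 in venetoclax 1 and 72 in venetoclax 2, and was called higher in venetoclax 1 (log2 fold change 1.73, adjusted p 3.26e-04). Its values in the STL427944 libraries were 80 and 267 counts. BCL2L11 had 271 and 274 counts with DMSO, 354 in venetoclax 1 and 314 in venetoclax 2, which placed both above both DMSO libraries in CPM, with log2 fold changes of 0.67 and 0.03 in the 2 libraries. Of 8 BH3-only genes 6 were tested and 1 was called higher, in venetoclax 1 (5.93% of all genes). BAX, the pore-forming effector, had 1056 and 1034 counts with DMSO, 1137 in venetoclax 1 and 993 in venetoclax 2, and did not pass the 2-fold limit in either. TNFRSF10B, a death receptor for TRAIL, was called higher in venetoclax 1, from 280 and 159 counts with DMSO to 435, and read 130 in venetoclax 2. Of 16 caspases, apoptosome genes and their inhibitors, 0 were called in either library, and with GC-corrected offsets 1 was called higher in venetoclax 1.

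**Figure D2:**
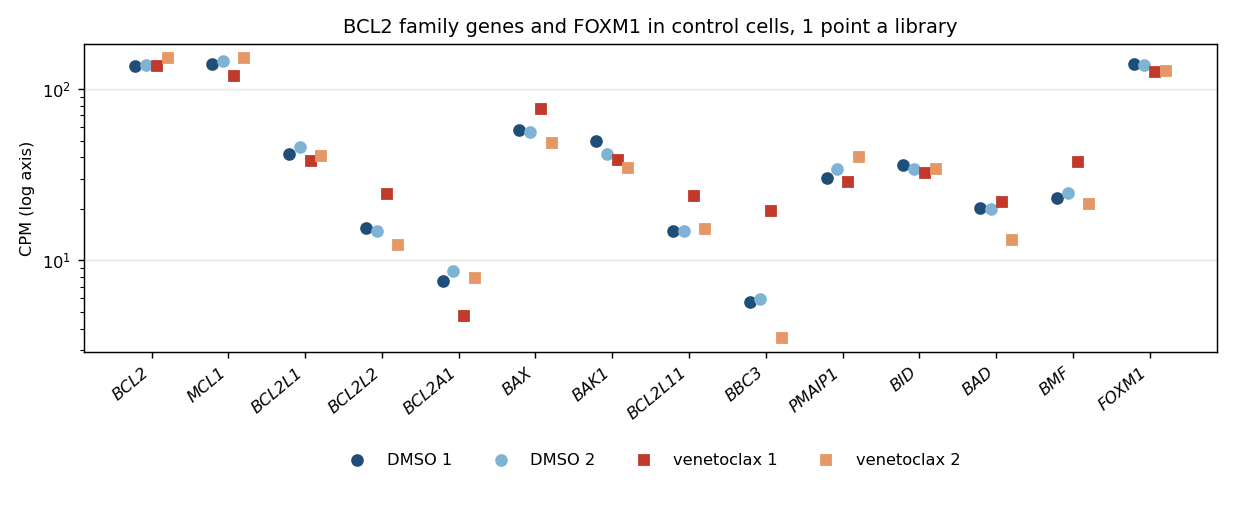
CPM (log axis) of BCL2 family genes and FOXM1, 1 point per library, with DMSO as circles and venetoclax as squares. BCL2 and MCL1 overlap between the groups, and the widest gap is that of BBC3, at 19.3 CPM in venetoclax 1 and 3.51 CPM in venetoclax 2.

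FOXM1 itself (hg38, chr12:2857680-2877174, minus strand) read slightly lower in both venetoclax libraries, a direction that turned in venetoclax 2 with GC-corrected offsets (log2 difference 0.06, against -0.31 in venetoclax 1). It had 2554 and 2515 counts with DMSO, 1883 in venetoclax 1 and 2599 in venetoclax 2, or 139 ± 2.07 CPM with DMSO and 126 ± 0.745 CPM with venetoclax (SD, n = 2 each). The groups did not overlap, but the log2 fold change of -0.13 had an SE of 0.17 and was not called. AKT1 overlapped, at 1740 and 1825 counts with DMSO against 2140 and 1707, as did MTOR, at 203 and 203 CPM with DMSO against 216 and 183 CPM. With GC-corrected offsets the log2 difference of AKT1 was 0.24 in venetoclax 1 and 0.05 in venetoclax 2, against 0.55 and -0.24 in the main fit. That of MTOR was -0.015 and -0.025, against 0.09 and -0.16. RICTOR, a subunit of mTORC2, lay at 122 and 121 CPM with DMSO and 124 and 137 CPM with venetoclax, and with GC-corrected offsets its log2 difference was 0.36 in venetoclax 1 and -0.13 in venetoclax 2. Of 22 AKT and mTOR pathway genes 0 were called in either library, with or without GC-corrected offsets.

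Several mitotic genes that FOXM1 is known to drive were called lower in venetoclax 1, although the direct test of the 2 venetoclax libraries in the fit of all 16 libraries called 0 genes. CENPF, a kinetochore protein, had 5191 and 5856 counts with DMSO, 2187 in venetoclax 1 and 8553 in venetoclax 2, which stood on opposite sides of DMSO. CDK1, the kinase of mitotic entry, had 3016 and 3188 counts with DMSO, 1368 in venetoclax 1 and 4660 in venetoclax 2, and PLK1 had 1080 and 1118, 498 and 1271. Of 24 genes of this list 6 were called lower in venetoclax 1 (CCNA2, TOP2A, CCNB2, CCNB1, CENPF and CENPE; background 3.36% of all genes called lower in that library), and 0 were called in venetoclax 2. The list's median log2 difference was -0.86 in venetoclax 1 and 0.13 in venetoclax 2. With GC-corrected offsets none of these 6 kept its call, and PLK1 was the 1 of the 24 called lower in venetoclax 1 (log2 difference -1.04). AURKB, a mitotic kinase, read 59.1 and 61.1 CPM with DMSO and 52.3 and 55.5 CPM with venetoclax, and with GC-corrected offsets its log2 difference in venetoclax 2 was 0.07. UBE2C, a ubiquitin-conjugating enzyme of mitotic exit, read 31.7 and 32.6 CPM with DMSO and 18.9 and 26.0 CPM with venetoclax, below DMSO in both fits.

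Several HOXA genes that the study names were near 0 in these cells. HOXA3, HOXA5, HOXA6 and HOXA7 had at most 3 counts in any of the 4 libraries, HOXA11 and HOXA13 had 0 in all, and none reached the count limit. HOXA9, at 984 and 871 counts with DMSO against 620 and 1390, was chosen after its values were seen and overlapped between groups.

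Genes placed on the same side of both DMSO libraries by both venetoclax libraries included ATF4 response genes, all on the lower side. The genes named next were the 12 protein-coding genes of lowest unadjusted p in each direction with at least 10 counts in every library, and none was called. DDIT4, a stress-induced inhibitor of mTORC1 (hg38, chr10:72273919-72276036, plus strand), had 2140 and 1516 counts with DMSO, 433 in venetoclax 1 and 890 in venetoclax 2. It read 99.9 ± 24.5 CPM with DMSO and 36.2 ± 10.3 CPM with venetoclax (SD, n = 2 each), a log2 fold change of -1.46 with an SE of 0.30 and an unadjusted p of 0.00372. Apart, its log2 difference was -1.79 in venetoclax 1 (adjusted p 2.83e-04) and -1.21 in venetoclax 2 (adjusted p 0.0256), both called, and with GC-corrected offsets the second was -0.96 and no longer called. The STL427944 libraries had 879 and 231 counts.

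SESN2, a sestrin that restrains mTORC1 (hg38, chr1:28259518-28282491, plus strand), had 1168 and 1304 counts with DMSO, 563 in venetoclax 1 and 896 in venetoclax 2. Its CPM were 67.5 ± 4.98 with DMSO and 40.7 ± 4.33 with venetoclax. ASNS, asparagine synthetase (hg38, chr7:97851677-97872542, minus strand), had 1071 and 1276 counts with DMSO, 560 in venetoclax 1 and 879 in venetoclax 2. Its CPM were 64.1 ± 7.66 and 40.1 ± 3.88 (SD, n = 2 each), and the log2 fold change was -0.67 with an SE of 0.20. Values in both genes were lower in venetoclax 1 than in venetoclax 2, and the groups did not overlap. With GC-corrected offsets SESN2 passed the 2-fold limit in venetoclax 1 (log2 difference -1.09) and read -0.39 in venetoclax 2. The STL427944 libraries were also low, with 700 and 374 counts of SESN2 and 567 and 417 of ASNS.

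PSAT1, of serine synthesis, read 184 and 190 CPM with DMSO and 129 and 143 CPM with venetoclax. CHAC1, which degrades glutathione, read 108 and 142 CPM with DMSO and 71.9 and 93.1 CPM with venetoclax. Not all ATF4 genes did the same: TRIB3 had 499 and 489 counts with DMSO, 508 in venetoclax 1 and 282 in venetoclax 2, and PHGDH, the first enzyme of serine synthesis, had 2228 and 2233, 2222 and 1259. DDIT3, which encodes CHOP, was called higher in venetoclax 1 (120 and 122 counts with DMSO, 235 and 104 with venetoclax). Of 19 tested genes of the ATF4 and CHOP list, 9 lay below DMSO in both libraries and 0 above, beside 11.8% and 11% of all genes. The list's median was -0.30 over both libraries, -0.19 in venetoclax 1 and -0.40 in venetoclax 2. In venetoclax 1, 1 of the 19 was called higher and 1 lower (1 and 2 with GC-corrected offsets), and in venetoclax 2 none was called higher and 2 were called lower (1 with GC-corrected offsets).

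The promoters of ASNS, CHAC1 and DDIT4 are shown because the first 2 hold the letters of the ATF4 element and the third, with the lowest fold change of the 3, does not. Each spans 250 bases before to 50 bases after a transcription start in the RefSeq table (GRCh38.p14), 5′ to 3′ on the gene's strand, and capitals mark TGATGNAA on either strand. ASNS lies at chr7:97872359-97872658, minus strand, with the match starting 68 bases before the start site. CHAC1 lies at chr15:40953221-40953520, plus strand, with the match on the opposite strand starting 209 bases before the start site, and DDIT4 lies at chr10:72273674-72273973, plus strand.
ASNS: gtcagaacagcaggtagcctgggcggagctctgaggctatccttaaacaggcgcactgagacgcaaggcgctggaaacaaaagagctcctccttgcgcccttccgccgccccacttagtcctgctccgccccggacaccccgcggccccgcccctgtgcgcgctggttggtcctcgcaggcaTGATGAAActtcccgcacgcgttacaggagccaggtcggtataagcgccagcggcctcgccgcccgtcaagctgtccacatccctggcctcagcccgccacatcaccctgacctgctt
CHAC1: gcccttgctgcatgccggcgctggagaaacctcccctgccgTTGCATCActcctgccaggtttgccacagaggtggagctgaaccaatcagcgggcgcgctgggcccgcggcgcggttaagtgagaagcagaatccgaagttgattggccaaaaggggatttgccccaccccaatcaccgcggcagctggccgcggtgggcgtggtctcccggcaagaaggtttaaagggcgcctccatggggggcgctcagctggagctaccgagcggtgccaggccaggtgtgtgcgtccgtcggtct
DDIT4: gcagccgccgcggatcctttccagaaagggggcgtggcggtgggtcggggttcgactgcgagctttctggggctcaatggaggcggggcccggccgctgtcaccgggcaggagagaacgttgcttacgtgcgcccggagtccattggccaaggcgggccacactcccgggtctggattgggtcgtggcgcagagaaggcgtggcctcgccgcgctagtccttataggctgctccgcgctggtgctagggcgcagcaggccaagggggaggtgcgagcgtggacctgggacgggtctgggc
A second ASNS promoter (chr7:97872116-97872415, minus strand) held no match, and neither did the promoters of SESN2 and TRIB3. The letters were found in 4 of 25 promoters of the ATF4 and CHOP list (16%) and in 1270 of all 35116 promoters of this length (3.62%). A match describes the letters only and was not tested as a binding site.

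Histone genes were another group on the lower side, beside nuclear respiratory chain genes and glycolysis and hypoxia genes, which are given below. H3C10, a replication-dependent histone gene (hg38, chr6:27810051-27811300, plus strand), had the lowest unadjusted p among the 12 on the lower side (0.00312). It had 12234 and 13573 counts with DMSO, 5077 in venetoclax 1 and 7850 in venetoclax 2, or 705 ± 48.9 and 361 ± 31.1 CPM. H2BC17, H4C2, H4C8, H3C7, H4C3, H2AC15 and H2BC5 were also among the 12. Over the replication-dependent histone genes, a list chosen after their values were seen, 32 of 50 tested lay below DMSO in both libraries and 1 above, beside 11.8% and 11% of all genes. Their summed CPM was 12603 and 14301 with DMSO, 6291 in venetoclax 1 and 11198 in venetoclax 2, and 29 were called lower in venetoclax 1 and 1 in venetoclax 2, beside 3.36% and 0.381% of all genes. With GC-corrected offsets the log2 differences of H3C7, H4C3 and H2AC15 in venetoclax 1 were -1.16, -1.07 and -1.11, against -0.93, -0.96 and -0.88 in the main fit. In venetoclax 2 they were -0.349, -0.515 and -0.37, smaller falls than the -0.59, -0.65 and -0.61 of the main fit. H4C8 went from -0.67 to -0.55 in venetoclax 1 and from -0.74 to -0.82 in venetoclax 2. Histone transcripts took 1.06% and 0.596% of the counts in the STL427944 libraries and 0.398% and 0.376% in the AraC libraries.

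The 12 genes on the higher side included SGK1, RHOB and ZFP36. SGK1, a kinase induced by glucocorticoids and stress, had 53 and 51 counts with DMSO, 127 in venetoclax 1 and 85 in venetoclax 2. RHOB, a small GTPase and immediate early gene, had 67 and 97, 182 and 146 counts. ZFP36, which promotes decay of AU-rich mRNAs, had 168 and 198, 326 and 286 counts. All 3 were higher in both venetoclax libraries than in either DMSO library and highest in venetoclax 1, with unadjusted p of 0.0505, 0.0391 and 0.0410. DNA ligase 4, LIG4, had 938 and 866 counts with DMSO, 1048 in venetoclax 1 and 1341 in venetoclax 2, a log2 fold change of 0.46. AHNAK, at 42 and 52, 295 and 66 counts, was the case in which 1 library set the value.

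**Figure D3:**
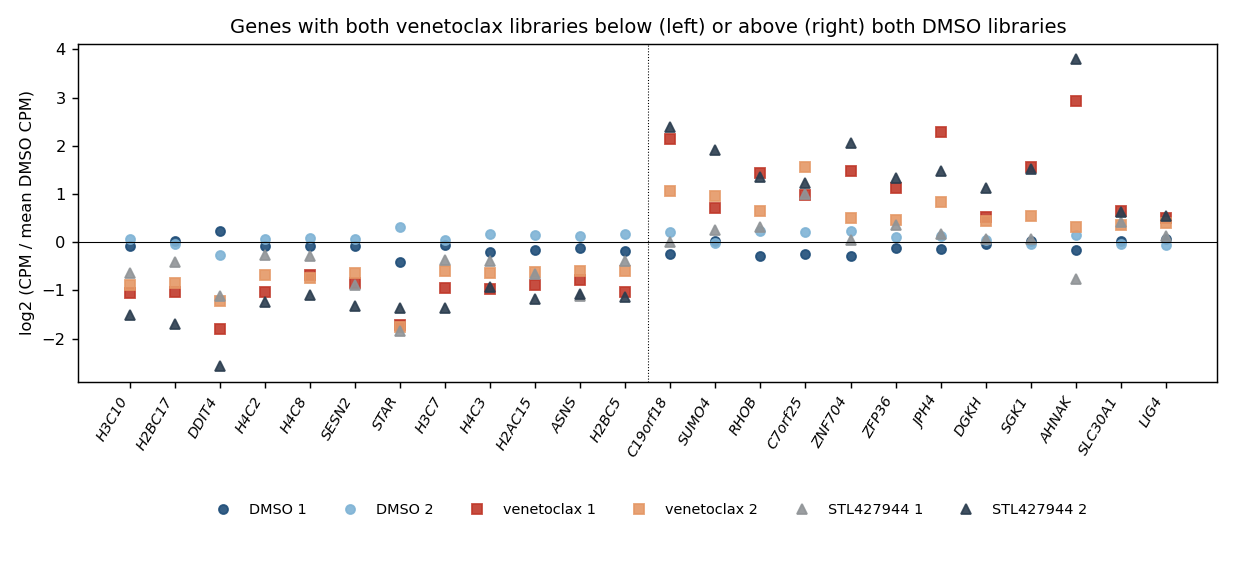
Log2 ratio of CPM to the mean DMSO CPM (y axis) for the 12 genes per direction of lowest unadjusted p, 1 point per library, with the STL427944 libraries as triangles. DDIT4, SESN2, ASNS and H3C10 lie lower in both venetoclax libraries, with venetoclax 1 below venetoclax 2 and STL427944 library 2 below both, and SGK1 and RHOB lie higher.

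Venetoclax 1 against DMSO, taken alone, gave 825 genes called higher (5.93%) and 468 called lower (3.36%). With a single treated library the spread came from the 2 DMSO libraries alone, and the lone library was assumed to vary like them. A fit of all 16 libraries, in which other groups set the spread, called 0 in either direction for this library (lowest adjusted p 0.351, with 1022 genes below an unadjusted 0.05), and DESeq2 called 390 higher and 269 lower. A direct test of venetoclax 1 against venetoclax 2 in the fit of all 16 libraries called 0 genes in either direction, so a gene called in one library is not thereby shown to differ from the other. Transcripts called higher had a median GC content of 57.2% and those called lower 44.2%, against 47.6% over all protein-coding genes tested. With GC-corrected offsets, 691 were called higher and 435 lower.

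Genes higher in venetoclax 1 included HMOX1, as well as JUN and other immediate early genes. HMOX1, haem oxygenase 1, had 4 and 4 counts with DMSO, 114 in venetoclax 1 and 10 in venetoclax 2, with 8 and 93 in the STL427944 libraries. JUN, a subunit of AP-1, had 18 and 6, 181 and 13 counts, with 27 and 153 in the STL427944 libraries. HSPA6 was chosen after its values were seen, at 2 and 7, 174 and 5 counts, with 20 and 224 in the STL427944 libraries. In all 3, venetoclax 1 stood apart from the other 3 libraries, and its value was near that of STL427944 library 2. With DMSO, HMOX1 and HSPA6 had under 10 counts, and they entered the tested genes only through venetoclax 1. The 16 tested immediate early genes had a median log2 difference of 1.06 in venetoclax 1 and -0.03 in venetoclax 2. Over all genes these medians were 0.001 and -0.016. With GC-corrected offsets the list's medians were 0.83 and 0.14. JUND had 2109 and 2078, 5107 and 2271 counts, whereas IER3 was lower in venetoclax 1, at 27 and 18, 6 and 17. CDKN1A, which encodes the p21 inhibitor of cyclin-dependent kinases, had 18 and 16, 91 and 7 counts, and CDKN1C had 14 and 12, 97 and 18.

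Cytokine and sterol genes were also higher in venetoclax 1. Of 17 NF-kB genes and cytokines 8 were called higher and 0 lower, among them CXCL8 (11 and 9 counts with DMSO, 67 and 11 with venetoclax) and the inhibitor NFKBIA (566 and 778, 1186 and 825). Of 16 sterol synthesis genes 8 were called higher in venetoclax 1 and 1 lower in venetoclax 2. HMGCS1, an early enzyme of the mevalonate pathway, had 3049 and 2002 counts with DMSO, 5144 in venetoclax 1 and 2945 in venetoclax 2. The sterol median was 0.97 in venetoclax 1 and -0.13 in venetoclax 2. Over all genes, 5.93% were called higher in venetoclax 1. With GC-corrected offsets, 7 NF-kB genes and 6 sterol genes were called higher in venetoclax 1.

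Genes lower in venetoclax 1 included LGALS12, TXNIP, CD38, ITGAM and CEBPA. LGALS12, galectin 12 (hg38, chr11:63506052-63516774, plus strand), had 622 and 566 counts with DMSO, 29 in venetoclax 1 and 526 in venetoclax 2, and 652 and 27 in the STL427944 libraries. TXNIP, an inhibitor of thioredoxin and of glucose uptake (hg38, chr1:145992435-145996579, minus strand), had 3313 and 3751, 237 and 3251 counts, and 2344 and 206 in the STL427944 libraries. Their log2 differences in venetoclax 1 were -4.06 and -3.61, and the adjusted p of TXNIP was 2.40e-06. CD38, an ectoenzyme of the plasma membrane, had 4380 and 3467, 446 and 3777 counts. ITGAM, the CD11b integrin, had 2290 and 1722, 351 and 1653, and CEBPA, a myeloid transcription factor, had 486 and 480, 70 and 319.

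In each of these 5 genes venetoclax 1 was far below the other 3 libraries, and venetoclax 2 lay much nearer to the DMSO libraries. Of 22 monocyte differentiation genes 8 were tested and 6 called lower in venetoclax 1 (CCR2, CD86, VCAN, ITGAM, LYZ and ITGAX), beside 3.36% of all genes. The lists that hold CEBPA and CD38 did not share their direction: of 20 blood transcription factor genes 2 were called lower and 0 higher, with a median of 0.11, and of 11 stem cell and AML surface antigens 1 was called lower and 2 higher, with a median of 0.25. CCR2, at 39 and 52 counts with DMSO and 40 in venetoclax 2, was at 0 in venetoclax 1, which against a floor of 3 counts was at least 11.8-fold lower.

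The 2 STL427944 libraries differed from each other in a like way. They share no library with the venetoclax and DMSO libraries. Across 11153 genes, the log2 difference of venetoclax 1 over venetoclax 2 and that of STL427944 library 2 over library 1 had a Pearson's r of 0.734 as a description across genes. Of 825 genes called higher in venetoclax 1, 544 (65.9%) were 2-fold or more higher in STL427944 library 2 than in library 1, which is 38.9% of the 1398 such genes and stands beside 10.0% of all genes. Of 468 called lower, 253 (54.1%) were lower in the same way, which is 35.4% of 714 and stands beside 5.13%. In the pairs of AraC, MK-2206, FOXM1-KD AraC and FOXM1-KD venetoclax, r with library 1 over library 2 was 0.576, 0.458, 0.619 and 0.576. Whether the venetoclax and STL427944 differences share a source was not tested.

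**Figure D4:**
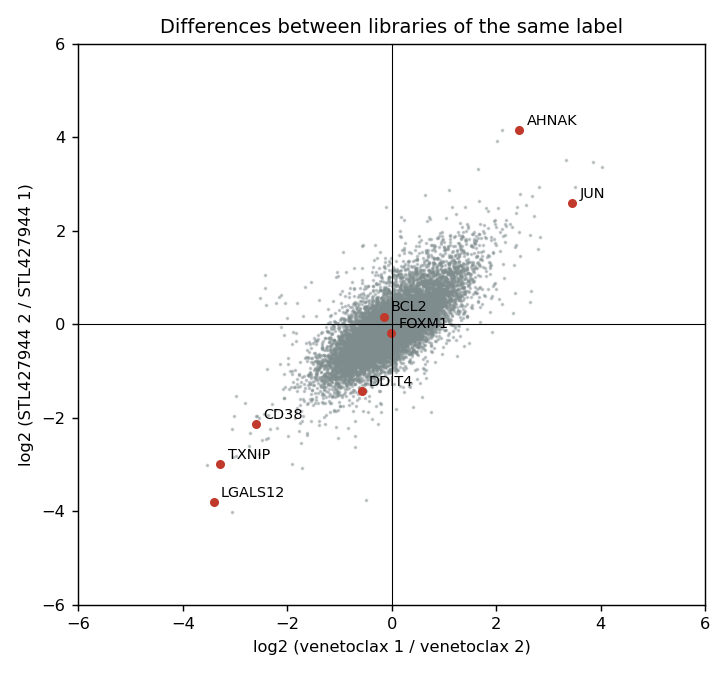
Log2 difference of venetoclax 1 over venetoclax 2 (x axis) against that of STL427944 library 2 over library 1 (y axis), 1 point per gene. The points of 11153 genes spread along a rising line, with a Pearson's r of 0.734.

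Venetoclax 2 against DMSO, taken alone, gave 24 genes called higher (0.172%) and 53 called lower (0.381%). DESeq2 called 1 and 1, DESeq2's size factors in edgeR 0 and 0, and GC-corrected offsets 5 and 5. Genes of the mitochondrial genome were among those called higher. MT-ATP8 had 501 and 769 counts with DMSO, 347 in venetoclax 1 and 2565 in venetoclax 2. MT-ND4, a subunit of complex I, had 18539 and 37898, 12692 and 75982 counts, so the DMSO libraries themselves were far apart. Of 13 mitochondrial protein-coding genes 7 were called higher in venetoclax 2 and 4 lower in venetoclax 1, the groups overlapped for all 13, and GC-corrected offsets left 3 called higher in venetoclax 2. NDUFS6, a nuclear-encoded subunit of complex I, had 241 and 323, 145 and 739 counts. Of 29 nuclear respiratory chain genes, by contrast, 14 lay below both DMSO libraries in both venetoclax libraries and 0 above, beside 11.8% and 11% of all genes, with 1 called lower in venetoclax 1 and 0 called in venetoclax 2.

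STC2, stanniocalcin 2, was the lowest gene of venetoclax 2 by the rule on counts, at 225 and 161 counts with DMSO, 208 in venetoclax 1 and 61 in venetoclax 2, with 53 and 59 in the STL427944 libraries. Its log2 difference in venetoclax 2 was -1.83 (adjusted p 0.0256), and in venetoclax 1 it was 0.40. STAR, which carries cholesterol into mitochondria, had 36 and 60 counts with DMSO, 12 in venetoclax 1 and 16 in venetoclax 2. It was called in each library alone, with log2 differences of -1.70 and -1.75. ADM2, with 52 and 35, 47 and 19 counts, and CYP51A1, a sterol demethylase with 87 and 63, 155 and 33 counts, were called lower in venetoclax 2. With GC-corrected offsets STC2 was still called in venetoclax 2 (adjusted p 0.0308), and STAR, ADM2 and CYP51A1 were not (adjusted p 0.232, 0.397 and 0.143).

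**Figure D5:**
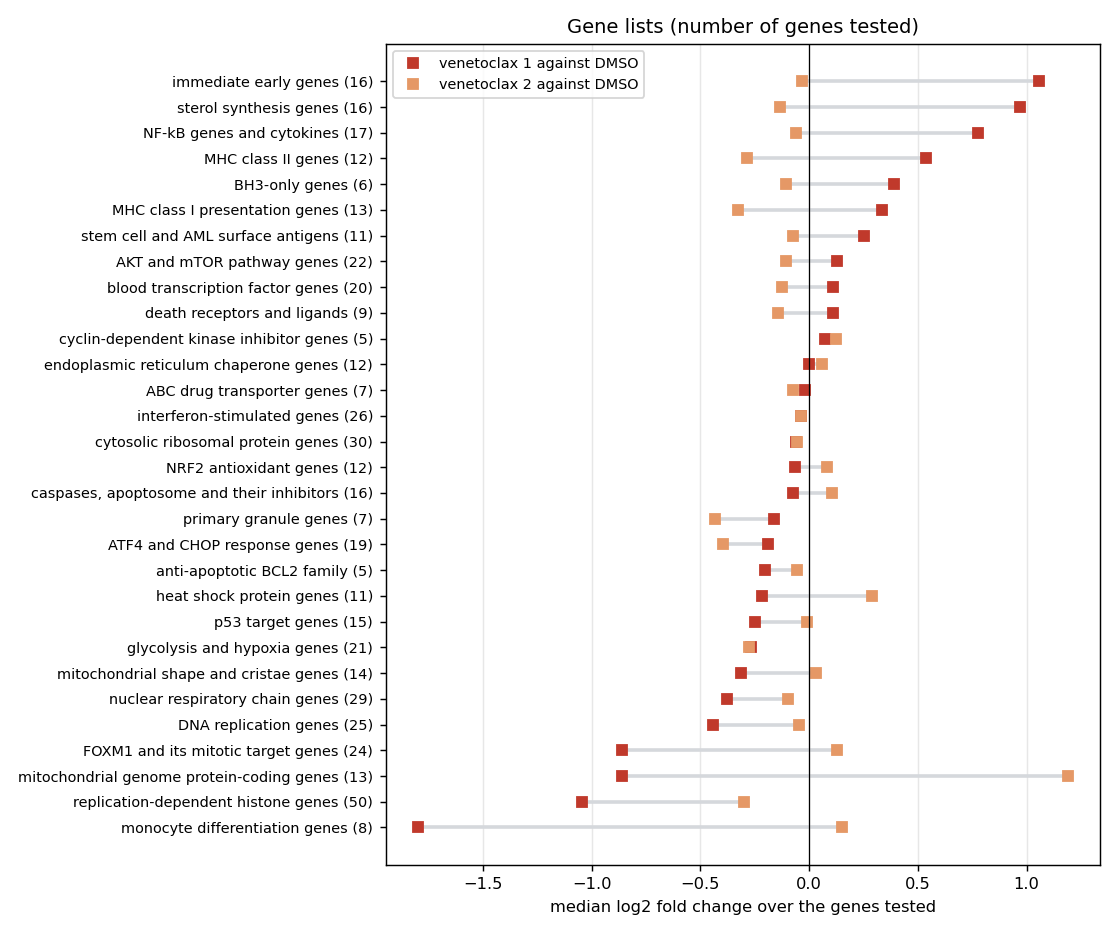
Median log2 difference from DMSO of each gene list in venetoclax 1 and venetoclax 2, with the number of tested genes. Immediate early, NF-kB and sterol lists lie above 0 in venetoclax 1 and near or below 0 in venetoclax 2, and the monocyte list lies lowest in venetoclax 1, at -1.80.

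Other lists were read in the same way. Glycolysis and hypoxia genes had 10 of 21 tested genes below DMSO in both libraries and 0 above, and DNA replication genes had 7 of 25 below and 0 above, beside 11.8% and 11% of all genes. No gene of these lists was called in either library, and with GC-corrected offsets 1 glycolysis and hypoxia gene was called lower in venetoclax 1. Of 15 tested p53 target genes 4 lay below DMSO in both libraries and 0 above, beside the same shares of all genes. Their median log2 difference was -0.25 in venetoclax 1 and -0.01 in venetoclax 2, and -0.03 and 0.04 with GC-corrected offsets. Among them CDKN1A was higher in venetoclax 1, as given above. Of 30 cytosolic ribosomal protein genes 0 were called in either library. Among 11 tested heat shock genes HSPA1B, an inducible HSP70, had 558 and 475, 1117 and 717 counts. HSPB1 had 237 and 269, 443 and 317, and HSPE1 went the other way in venetoclax 1, at 1048 and 1187, 312 and 1142. The list's median log2 difference was -0.22 in venetoclax 1 and 0.29 in venetoclax 2. With GC-corrected offsets these medians were -0.13 and 0.25.

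Markers were checked against the myeloblast label. CD34, a marker of immature blood cells, had 25160 and 26713 counts with DMSO, 16639 in venetoclax 1 and 28951 in venetoclax 2, and all 8 myeloblast markers passed the count limit. CD33, another myeloid marker, had 644 and 743 counts with DMSO, 296 in venetoclax 1 and 743 in venetoclax 2. None of the epithelial and fibroblast markers passed the limit, whereas 3 of 6 B lymphocyte markers (CD79A, CD79B and JCHAIN), 3 of 9 of T and NK lymphocytes and 2 of 11 of erythroid and megakaryocyte cells did. ITGA2B, of megakaryocytes, had 544 and 575 counts with DMSO, 131 in venetoclax 1 and 449 in venetoclax 2. MPO, near 0 in the control culture and high in FOXM1-KD cells, had 35 and 48 counts with DMSO and 5 and 41 with venetoclax. CD4, another such marker, had 18 and 14 with DMSO and 5 and 20 with venetoclax. AHNAK, also high in FOXM1-KD cells, went the other way in venetoclax 1. It had 42 and 52 counts with DMSO and 295 and 66 with venetoclax. NKG7, a gene of cytotoxic lymphocytes, stood at 589 and 639, 1543 and 520 counts, so venetoclax 1 was high, and CD3E, of T cells, stood at 103 and 103, 10 and 118, so it was low. The part of such markers in the venetoclax 1 difference was not tested.

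The same treatment was next set beside that of the FOXM1-KD cells, which used other libraries and other controls. FOXM1 read 136 and 134 CPM in control DMSO libraries against 48.0 and 80.6 CPM in FOXM1-KD DMSO libraries. CD34, however, had 0 and 2 counts in the FOXM1-KD DMSO libraries and 1 and 2 in the FOXM1-KD venetoclax libraries, and MPO had 90669 to 155753 counts in these 4. The 2 cultures thus differed in defining markers as well as in FOXM1, and FOXM1 level and culture cannot be told apart in what follows. In FOXM1-KD cells venetoclax gave 282 genes called higher (2.07%) and 121 lower (0.888%) of 13631. The interaction test of the venetoclax effect between the cultures over 14495 genes called 0 genes higher and 0 lower (lowest adjusted p 0.454, with 648 genes below an unadjusted 0.05).

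ATF4 response genes were low with venetoclax in that culture as well. ASNS read 193 and 84.5 CPM in the FOXM1-KD DMSO libraries and 23.9 and 49.0 CPM with venetoclax (log2 fold change -1.93, adjusted p 2.47e-04). PSAT1 and PHGDH were called lower too, with log2 fold changes of -1.62 and -1.63. The ATF4 and CHOP list had a median of -0.60 there, with 14 of 19 genes below 0. Of the 19, 4 were called lower and 2 called higher, beside 0.888% and 2.07% of all genes. DDIT4 was not called there (log2 fold change -0.59, adjusted p 0.594).

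Some genes of the higher side were also called in FOXM1-KD cells. SGK1 read 5.67 and 2.76 CPM with DMSO and 23.4 and 35.7 CPM with venetoclax, and RHOB read 10.3 and 2.18 CPM against 49.5 and 29.5 CPM. Of the 10 tested genes on the higher side of the rule, 2 were called higher in FOXM1-KD cells (20%). Of 11 on the lower side, 1 was called lower (9.09%). Over all genes tested in FOXM1-KD cells, 2.07% were called higher and 0.888% lower. Among all genes with both venetoclax libraries above both DMSO libraries 2.85% were called higher there, and among those below 1.25% were called lower. HMOX1, called higher in venetoclax 1 and at 10 counts in venetoclax 2, rose in both FOXM1-KD venetoclax libraries, from 0.104 and 0.208 CPM to 4.32 and 12.7 CPM. MHC class II genes went lower in FOXM1-KD cells, with 8 of 8 tested called lower, beside 0.888% of all genes. In control cells their median log2 difference was 0.54 in venetoclax 1 and -0.29 in venetoclax 2.

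Venetoclax was finally compared with AraC, a nucleoside analogue that stalls DNA replication, given for the same 48 h but at another dose, in control cells. Of 14185 genes, 7 were called higher (0.0493%) and 46 lower (0.324%) with venetoclax, with a lowest adjusted p of 0.0836. With the replicate number of the labels as a block, 307 were called higher and 722 lower. The lower side included cyclin E genes. CCNE1, cyclin E1, had 1603 and 1620 counts with AraC, 208 in venetoclax 1, 269 in venetoclax 2 and 246 and 243 with DMSO. TP73, a p53 family member, had 555 and 517 with AraC, 37 and 31 with venetoclax, and 18 and 34 with DMSO. In both, the venetoclax libraries lay near DMSO and far from AraC.

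The cyclin CCNE2 and RRM2, a subunit of ribonucleotide reductase, were lower with venetoclax than with AraC as well, with log2 differences of -2.14 and -1.68. RCSD1 had 833 and 907 counts with AraC, 2132 and 2623 with venetoclax and 2051 and 2374 with DMSO. Histone genes H1-4, H2BC5 and H3C10 were higher with venetoclax than with AraC, although H3C10, at 5077 and 7850 counts with venetoclax, was below its 12234 and 13573 counts with DMSO. The venetoclax libraries thus lay between AraC and DMSO for H3C10 and beside DMSO for RCSD1.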

How the data were processed

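Raw counts were deposited by the authors, 1 per gene and library, made by aligning reads to hg38 with STAR and counting on Ensembl genes with featureCounts, as the paper's methods and the submitters' processing notes name them. Those methods give Stranded CORALL libraries after ribosomal RNA depletion in one batch, whereas the labels name RiboZero and TruSeq Stranded. Use of molecular identifiers in counting is not given in the sources used here, so counts were taken as reads. Library totals ranged from 7351755 to 21362546 counts over the series and from 14327139 to 21362546 over the 4 libraries, and floors of 3 counts cover counting error only.

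After TMM scaling, edgeR's quasi-likelihood test (glmQLFTest, version 4.0.16, R 4.3.3) was run over all genes with a mean of at least 10 counts, with Benjamini-Hochberg adjustment. Groups were taken from the labels, and 0 columns were left unmapped. CPM relate counts to the TMM-scaled total, and a prior count of 0.125 entered fitted fold changes. Each venetoclax library was also tested alone against DMSO, the effect was tested against that in FOXM1-KD cells with an interaction term, and venetoclax was tested against AraC. Tests were tried on simulated counts. Gene lists are described by counts and medians without a set test. Named genes were BCL2 family members, FOXM1 and genes the paper names, the 12 protein-coding genes per direction of lowest p with both venetoclax libraries on one side of DMSO and at least 10 counts in each library, and the 8 per direction of each library alone. Genes marked as chosen after their values were seen, CCR2, and genes listed only as list members fall outside these rules. Some genes the rules name are not reported here. Members and lists were chosen with earlier results of these data known.

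Alternatives included edgeR's exact test, DESeq2 1.42.0, voom with quality weights (limma 3.58.1), other size factors and filters, all 16 libraries in one fit, a prior count of 2, and leaving out each library. Fits of each library under other settings and GC-corrected offsets were added after seeing the data. Transcript GC content and length came from GENCODE, promoters from RefSeq tables. Correlations used scipy 1.17.1 in Python 3.11.15, and plots matplotlib 3.10.9.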

Additional observations from a re-analysis of the deposited data

How the results depend on the processing

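In the test of both venetoclax libraries against DMSO, 0 genes were called under every alternative run on all 4 libraries, with 58 to 188 genes below an unadjusted 0.05. Leaving out 1 library in turn gave 0 to 825 genes called higher and 0 to 468 called lower: 24 and 53 without venetoclax 1, 825 and 468 without venetoclax 2, and 0 without either DMSO library. Signs turned with the library left out for BCL2 (-0.0152 to 0.1324), MCL1 (-0.2607 to 0.0752), PLK1 (-0.8523 to 0.0358), CDK1 (-0.8915 to 0.4132), CENPF (-1.0468 to 0.457), AKT1 (-0.2364 to 0.5533) and MTOR (-0.1582 to 0.0912), each on the log2 scale. For venetoclax 1 alone, called genes higher and lower were 390 and 269 with DESeq2, 0 and 0 with all 16 libraries in one fit, and 95 and 81 with 14 libraries without STL427944. For venetoclax 2 alone they were 0 and 0 with DESeq2's size factors, with all 16 and with 14 libraries, 1 and 1 with DESeq2, 5 and 5 with GC-corrected offsets and 9 and 15 at an adjusted p below 0.05, and total counts only gave 112 lower. The cause was not tested, except that fits of more libraries take their spread from other groups.

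The interaction test called 2 genes higher in FOXM1-KD with all 16 libraries, and leaving out 1 library gave 0 to 26 higher (26 without control venetoclax 2, 1 without FOXM1-KD venetoclax 2) and 0 to 22 lower (22 without control venetoclax 2). Venetoclax against AraC gave 10 to 1319 higher and 70 to 1273 lower on leaving out 1 library: 15 and 70 without AraC 1, 10 and 88 without AraC 2, 321 and 1050 without venetoclax 1, and 1319 and 1273 without venetoclax 2. With the replicate number as a block this comparison called 307 higher and 722 lower. Deviations of same-numbered libraries from their group means correlated at 0.575 between venetoclax and AraC, and at 0.478 to 0.791 over 10 pairs of groups across 11818 genes, with 2 numbers per group. No paired analysis was possible for venetoclax against DMSO because the labels give the DMSO libraries no numbers.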

Other observations

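Some genes outside the lists, chosen after their values were seen, were called the same way in each venetoclax library alone. SPP1, osteopontin, had 7 and 7 counts with DMSO, 71 in venetoclax 1 and 26 in venetoclax 2, with log2 differences of 3.61 and 1.70. Its DMSO counts lay under the limit of 10, so it entered the tested genes only through the venetoclax libraries. ADAMTS14, a procollagen protease, had 210 and 125 counts with DMSO, 23 in venetoclax 1 and 80 in venetoclax 2, with log2 differences of -2.57 and -1.24. SPP1 had 10 and 79 counts in the STL427944 libraries, and ADAMTS14 had 135 and 32. Both tests share the DMSO libraries. With GC-corrected offsets neither gene was called in venetoclax 2.

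Protein-coding genes at 0 counts in venetoclax 1, with the other 3 libraries above 0, included C10orf105 (88 and 75 counts with DMSO, 75 in venetoclax 2), at least 21.2-fold lower against a floor of 3 counts, ITGB7, an integrin, at least 7.54-fold lower, and ETV1, at least 6.37-fold lower. Transcripts of olfactory receptor genes summed to 9.14 and 7.06 CPM of the unscaled total with DMSO, 14.8 in venetoclax 1, 5.38 in venetoclax 2, and 8.15 and 22.3 in the STL427944 libraries.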
